A study of Mus musculus with 2 samples.

Results

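The genes described here are 10 imprinted genes that control growth: H19, Igf2, Mest, Plagl1, Cdkn1c, Dlk1, Meg3, Peg3, Grb10 and Igf2r. They were taken by symbol from 28380 genes listed over both libraries. All 10 were found, and Igf2 was the sparsest, with 43 and 140 unique molecular identifiers (UMIs, each standing for 1 captured RNA molecule) in all kept cells. The list was drawn up with earlier results of these libraries known, among them a high ratio of H19 between the libraries in endothelial cells. Which values bore on each other gene is not given in the sources used here, so all 10 are treated as selected on their UMI levels, and their levels and ratios are a description.

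RNA of single cells was sequenced (scRNA-seq) from femur and tibia at postnatal day 30. Blood cells were first removed with a lineage depletion kit, and then cells carrying CD45 or CD117 with magnetic beads. The Dach1OE library came from mice labelled Apj CreERT2 - Dach1OE +/f, in which tamoxifen switches on a Dach1 transgene through a Cre driven by Aplnr (also called Apj), a gene of capillary endothelium. The Control library came from mice labelled Dach1OE +/f, which carry the transgene without the Cre. Both groups were C57BL/6, received tamoxifen on postnatal days 1 and 2 and held males and females, and each library pooled 2 mice. The methods also name a cross with mT/mG reporter mice, which the labels do not. With 1 library per group no difference between the groups could be tested. The intervals given are 95% intervals that cover counting error only, and mouse, library and genotype cannot be told apart.

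An imprinted gene is read mainly from the copy inherited from 1 parent. H19 is a maternally expressed long non-coding RNA that shares an imprinting control region and enhancers with the paternally expressed growth factor gene Igf2, and it is abundant in fetal tissue and falls after birth. Paternally expressed growth promoters and maternally expressed growth inhibitors together make up a network that slows down as the body reaches its size, and growth plate cartilage keeps several of its genes active in young mice.

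H19 (a lincRNA in GENCODE) lies on chromosome 7 at 142575529-142578143 of GRCm38 on the minus strand, 72.6 kb from Igf2 and 880 kb from Cdkn1c. Dlk1 and Meg3 form a second pair on chromosome 12, 77.7 kb apart. Of the other genes, Mest is on chromosome 6, Plagl1 on 10, Grb10 on 11, Igf2r on 17 and Peg3 on another part of 7. The transcripts of H19 and Mest also carry microRNAs, which these libraries of polyadenylated RNA do not measure. Their mature sequences (RefSeq, GRCm38.p6) are shown because each is cut out of a host transcript whose level is reported here, and capitals mark the seed, bases 2 to 8, which pairs with targets. No seed was shared.

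mmu-miR-675-5p: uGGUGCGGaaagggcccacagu

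mmu-miR-675-3p: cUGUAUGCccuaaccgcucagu

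mmu-miR-335-5p: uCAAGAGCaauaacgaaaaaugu

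mmu-miR-335-3p: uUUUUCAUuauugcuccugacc

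The first pair lies within an exon of H19, with miR-675-5p at chr7:142577112-142577133 and miR-675-3p at chr7:142577078-142577099, both on the minus strand. The second pair lies within Mest but in none of its exons, with miR-335-5p at chr6:30741314-30741336 and miR-335-3p at chr6:30741354-30741375 on the plus strand.

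Of the cells in the tables, 26466 of 28720 were kept in the Control library and 29317 of 32028 in the Dach1OE library, with median depths of 3793.5 and 4055 UMIs per cell. Cells were gated by marker genes into endothelial cells (ECs; 6007 and 6842), stromal cells (5858 and 4673), chondrocytes (3781 and 5194), mural cells (1339 and 2702) and fibroblasts (876 and 762), and 17.9% and 17.0% of kept cells met no gate. A gate cuts a range of scores, and 1376 Control and 1167 Dach1OE cells that scored highest as ECs lay near the cut, on either side of it. No doublets were called, and 879 barcodes occurred in both libraries. Dach1, the targeted gene, stood at 3.96 UMIs per 1000000 UMIs of the gate (CPM) in Control ECs and at 209 CPM in Dach1OE ECs, in the direction of the labels. It was higher outside the ECs too, with 22 and 177 UMIs (log2 ratio 2.10) in mural cells and 10 and 43 UMIs (2.38) in fibroblasts. Chondrocytes had 102 and 330 UMIs (1.31), stromal cells 3.89 and 8.66 CPM, and the haematopoietic cells left after depletion 19.6 and 30.6 CPM. The mix of ECs differed, with 2028 and 374 cells gated as sinusoidal, 296 and 772 as arterial, and 94 and 2086 in the gate built on Scgb3a1. The mural cells that met no subtype gate were led by Bglap, Col1a1 and Col10a1, genes of bone and cartilage, so mural values are given by subtype as well.

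In ECs, H19 was at 14.4 CPM in the Control library (305 UMIs) and at 441 CPM in the Dach1OE library (10285 UMIs), 30.7-fold apart as measured. On the log2 scale the ratio of Dach1OE over Control was 4.94 (4.77 to 5.11), rank 7 of the 14891 genes with at least 20 UMIs in ECs of both libraries together. With each cell thinned to 1000 UMIs, 1.58% (1.28 to 1.93) of Control ECs and 8.64% (7.98 to 9.34) of Dach1OE ECs had an H19 UMI. The shares of haematopoietic cells were 1.66% (1.27 to 2.13) and 4.02% (3.43 to 4.67), with median depths of 4826.5 and 4604 UMIs against 2945 and 2878 in ECs. Those cells were at 55.9 and 123 CPM and held more chondrocyte markers than ECs (4455 against 1335 CPM in the Control library), so neither value is a clean background for ECs. Control ECs did not stand above this share, and the fold, ratio and rank of H19 in ECs and in each EC gate are set against a Control level that was not shown to lie above background.

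The difference was concentrated in ECs gated as arterial, the cells with Gja5, Gja4 and Sema3g. There H19 was at 26.4 CPM in the Control library (27 UMIs in 296 cells) and at 2638 CPM in the Dach1OE library (7343 UMIs in 772 cells). The log2 ratio was 6.64 (6.10 to 7.25), first of 10166 genes. After thinning, 1.73% (0.564 to 3.99) of Control and 36.0% (32.6 to 39.5) of Dach1OE arterial ECs had an H19 UMI. Arterial ECs were 4.93% of Control ECs with 8.85% of their H19 UMIs, and 11.3% of Dach1OE ECs with 71.4% of theirs. Without the arterial gate, H19 in ECs still differed by 3.38 on the log2 scale. The gate mattered for this ratio. With every cell that had UMIs of 3 or more EC markers taken as an EC, whatever its gate (11273 and 12031 cells), H19 was at 163 and 576 CPM and the ratio was 1.82. In that wider set, cells gated as chondrocytes held 5523 of the 7541 H19 UMIs in the Control library (407 cells) and 9295 of 28821 in the Dach1OE library (534 cells).

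Other EC gates spread over a wide range. ECs gated as type R, the post-arterial capillaries of remodelling bone, had 11.4 CPM and 743 CPM, from 4 and 226 UMIs in 102 and 84 cells, with a log2 ratio of 6.02 (4.64 to 7.91). This gate was led by C1qtnf9, but also by Tagln and Mustn1, genes of smooth muscle, so its cells may not all be type R. The gate on Pgf and Cxcr4 had 3 Control UMIs and 449 Dach1OE UMIs, with a log2 ratio of 6.17 (4.61 to 8.45). The Control levels of these 2 gates, 11.4 and 9.37 CPM, were below the 14.9 and 11.8 CPM of H19 that their chondrocyte markers would bring at the ratio seen in chondrocytes. These 3 gates thus stood apart from the sinusoidal gate, at 14.0 and 23.3 CPM, and from the Scgb3a1 gate, at 19.2 and 32.9 CPM, which held the most Dach1OE ECs and the highest Dach1 level of any gate named here (278 CPM). Metaphyseal ECs were in between, at 12.4 and 90.7 CPM.

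**Figure D1:**
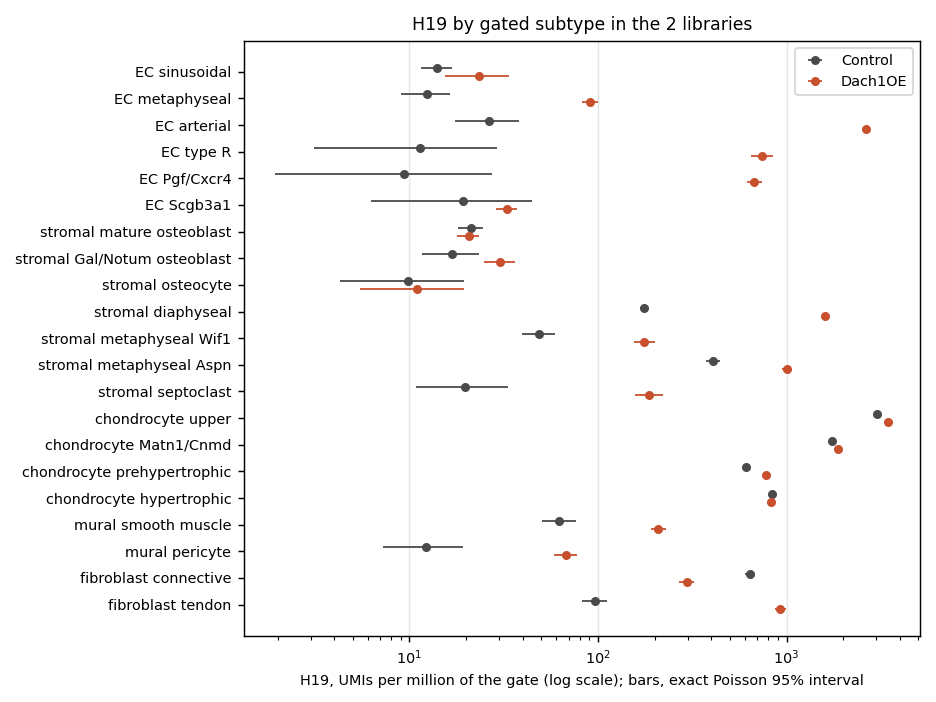
H19 level in CPM (log axis) for each gated subtype, with 1 point per library and bars for the exact Poisson 95% interval. Arterial ECs rise from 26.4 to 2638 CPM between the Control and Dach1OE points, and the chondrocyte gates are high in both libraries.

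H19 was uneven from cell to cell. In Dach1OE arterial ECs, 406 of 772 cells had no H19 UMI, while 152 cells (19.7%) had 10 or more and together held 90.1% of the H19 UMIs, with up to 256 in 1 cell. In the Control library 280 of 296 arterial ECs had none, and the highest count was 7. The H19-rich arterial cells were deeper than the rest, with medians of 4134 and 2721 UMIs. Their EC markers were alike, with a median of 128 per 10000 UMIs in both, and their chondrocyte markers were at 12.1 per 10000 against 13.3 in the rest. Stromal, mural and fibroblast markers of these cells are not given here. With H19 counts above 10 in a cell set to 10, the log2 ratio over all ECs was 3.53.

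**Figure D2:**
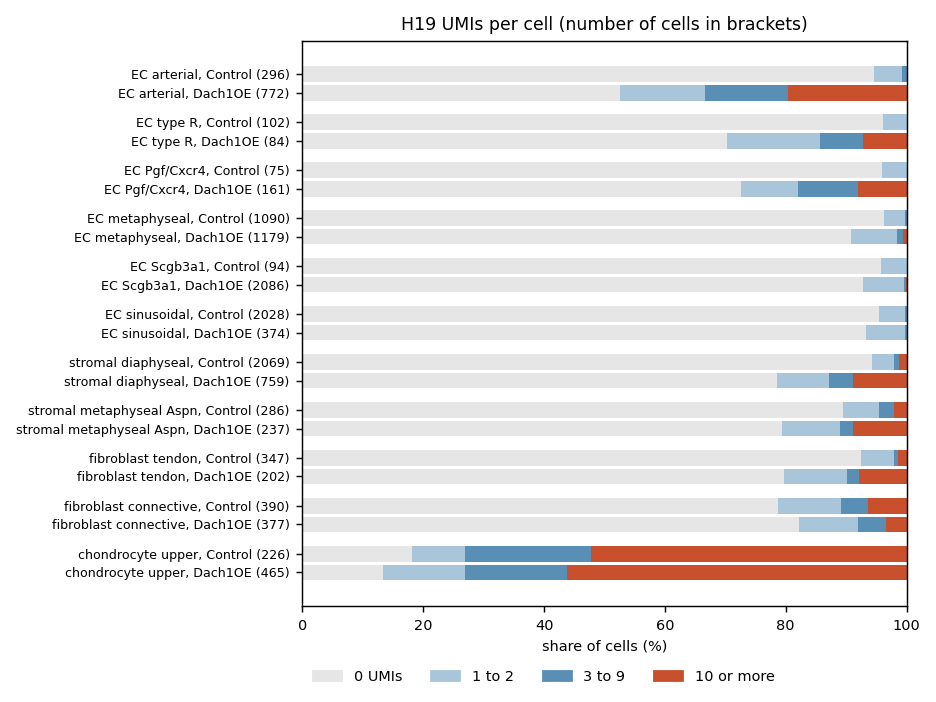
Share of cells (%) by number of H19 UMIs in a cell, for gated subtypes in the Control and Dach1OE libraries, with the number of cells in brackets. In Dach1OE arterial ECs 19.7% of cells had 10 or more H19 UMIs, and in Control arterial ECs none of 296 did.

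Chondrocytes had the highest H19 level of any class in both libraries, and their markers, at 158882 and 158180 CPM there, were present in the other gates at 1291 to 19362 CPM. In ECs all 12 chondrocyte markers were higher in the Dach1OE library, with a summed level of 1335 CPM in the Control and 1814 CPM in the Dach1OE library. Of 22 stromal markers 15 were higher, with a sum of 725 and 1064 CPM, and of 11 mural markers 5 were higher, with a sum of 1332 and 582 CPM. In the gates with the most H19 the stromal sums were larger, at 2587 and 3600 CPM in arterial ECs, 1622 and 2768 CPM in type R ECs and 941 and 1549 CPM in the Pgf and Cxcr4 gate, and 12, 11 and 13 of the 22 were higher. The stromal list includes Cxcl12, for which the authors reported high expression in type R ECs. These sums are thus not a measure of stromal RNA alone. The part of the stromal markers in the H19 result was not tested. At the H19 level that comes with these markers in chondrocytes, 12.2 and 20.7 CPM of H19 would accompany them in ECs, against the measured 14.4 and 441 CPM. For arterial ECs the same sum gives 12.7 and 19.3 CPM against 26.4 and 2638 CPM. The sum did not hold in every gate. It was above the measured level in mature osteoblasts (97.9 and 124 against 21.1 and 20.6 CPM), in osteocytes (72.1 and 79.9 against 9.88 and 10.9 CPM) and in Control tendon fibroblasts (154 against 96.4 CPM).

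Within the Dach1OE library, cells could also be split by whether a Dach1 UMI was seen. Arterial ECs with one (329 cells) had H19 at 3720 CPM and those without (443 cells) at 1541 CPM. After thinning to 1000 UMIs, 44.3% of the former and 29.8% of the latter had an H19 UMI, although the former were also deeper before thinning (medians of 3621 and 2603 UMIs). The other gates did not all share this. Type R ECs had 1251 and 371 CPM, and 33.3% (18.0 to 51.8) and 13.7% (5.70 to 26.3) of thinned cells, with overlapping intervals. Metaphyseal ECs had 165 and 45.5 CPM, but the shares of thinned cells with an H19 UMI were 5.04% (3.06 to 7.76) and 4.75% (3.37 to 6.49). The Scgb3a1 gate, the largest, had 32.7 and 33.2 CPM, and 2.41% and 3.81% of thinned cells. In the Pgf and Cxcr4 gate the levels were 610 CPM (535 to 693) with a Dach1 UMI and 767 CPM (667 to 877) without, with overlapping intervals.

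Each library held cells of both sexes, told apart by Xist and by Y-linked genes, which comes nearest to values per mouse. In arterial ECs with Xist, H19 had 4 UMIs in the Control and 2124 in the Dach1OE library. In those with Y-linked UMIs it had 1 and 2470 UMIs. The log2 ratios were 7.75 (6.39 to 9.62) for Xist cells and 9.37 (6.89 to 14.68) for cells with Y-linked UMIs. Most Control UMIs, 22 of 27, lay in cells with neither, where the ratio was 5.58 (4.97 to 6.25), and 192 Control and 208 Dach1OE ECs had both. Over all ECs the ratios were 4.84 and 5.15. The higher H19 level in Dach1OE ECs was thus seen in cells of both sexes, and in arterial ECs the Dach1OE levels of the 2 sexes were 2467 CPM (Xist) and 3077 CPM (Y-linked).

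**Figure D3:**
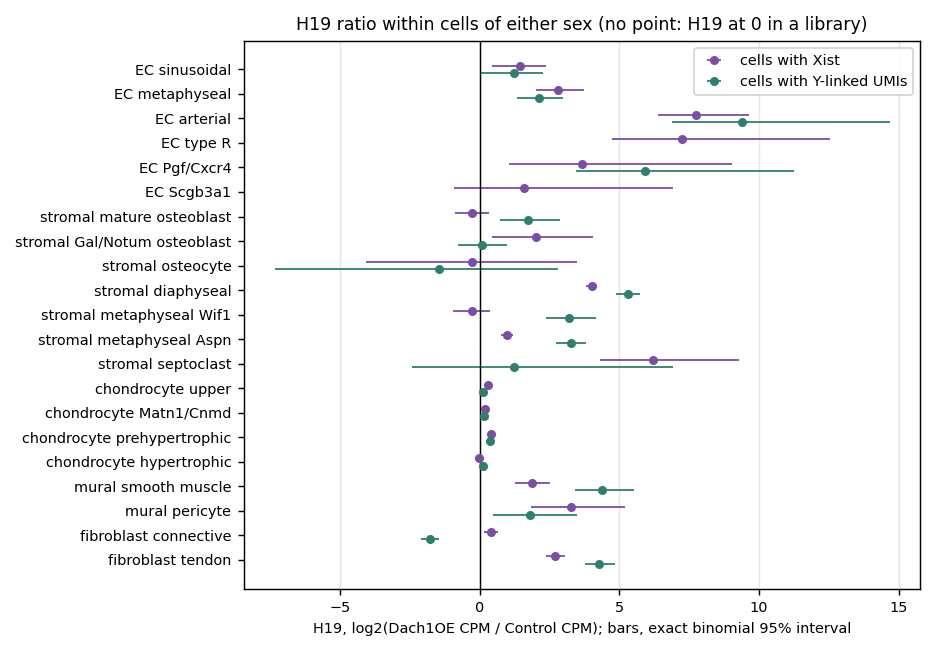
Log2 ratio of H19 CPM in Dach1OE over Control within cells with Xist and within cells with Y-linked UMIs, for each gated subtype, with exact binomial 95% intervals. Both points lie above 0 in arterial ECs (7.75 and 9.37), while connective fibroblasts have 0.39 and -1.79.

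Outside the ECs, H19 also differed by gate. Of the 20 subtype gates with enough UMIs, ECs included, H19 was at least 2-fold higher in the Dach1OE library in 11 (4 EC gates and 7 others) and lower in 1. In type R ECs and the Pgf and Cxcr4 gate it had enough through the Dach1OE library alone and could only count as higher. In septoclasts (14 and 133 UMIs) and pericytes (18 and 203 UMIs) it also reached the minimum only with its Dach1OE UMIs. Among all genes tested in a gate, the share that was 2-fold higher ran from 0.887% to 8.34% and the share that was lower from 1.7% to 11.2%. Diaphyseal stromal cells (Adipoq, Lpl and Esm1 among their leading genes) had 177 CPM in the Control and 1608 CPM in the Dach1OE library, a log2 ratio of 3.19 (3.09 to 3.29), second of 12112 genes. They numbered 2069 and 759 cells, and 25 Control cells (1.21%) and 67 Dach1OE cells (8.83%) had 10 or more H19 UMIs. Chondrocyte markers in these H19-rich Dach1OE cells were at 14.5 per 10000 UMIs against 15.5 in the rest. Between the libraries all 12 were higher in the Dach1OE diaphyseal gate, with sums of 2044 and 3007 CPM, and their part in the H19 result was not tested.

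The other stromal gates differed less or rested on fewer molecules. The metaphyseal gate on Aspn had 409 and 1001 CPM, and 1 Control cell held 315 of its 528 Control UMIs. The metaphyseal gate on Wif1 had 48.5 and 176 CPM, and septoclasts, which resorb cartilage, 19.8 and 187 CPM from 14 and 133 UMIs. In septoclasts 11 of 12 chondrocyte markers were higher in the Dach1OE library, with sums of 1899 and 2699 CPM, and their part in the result was not tested. Mature osteoblasts were at 21.1 and 20.6 CPM, a log2 ratio of -0.04 (-0.33 to 0.26). Osteocytes were the lowest Dach1OE gate, at 10.9 CPM.

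In mural cells, H19 was at 62.5 and 209 CPM in smooth muscle cells and at 12.2 and 67.5 CPM in pericytes. In smooth muscle 8 Dach1OE cells with 10 or more UMIs held 75.5% of the H19 UMIs, and these cells had chondrocyte markers at 136 per 10000 UMIs against 18.3 in the rest. In pericytes all 12 chondrocyte markers were higher in the Dach1OE library, with sums of 1433 and 3001 CPM, and the H19 that comes with these markers in chondrocytes would be 13.1 and 34.2 CPM. The part of those markers in the H19 values of both mural gates was not tested. The mural ratio of 1.45 also fell below a 2-fold difference under other settings, among them 0.65 with no margin between class scores and 0.62 with thinned cells.

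Fibroblast gates went opposite ways. Tendon fibroblasts (Tnmd, Scx, Kera) had 96.4 CPM in the Control and 928 CPM in the Dach1OE library, whereas connective fibroblasts (Mfap5, Clec3b, Scara5) had 640 and 296 CPM, a log2 ratio of -1.11 (-1.27 to -0.96). Few cells decided both values. In tendon 5 Control and 16 Dach1OE cells had 10 or more H19 UMIs, and these 16 had chondrocyte markers at 970 per 10000 UMIs against 39.0 in the rest. In connective fibroblasts 25 and 13 cells had that many, with chondrocyte markers at medians of 8.98 and 23.2 per 10000 UMIs, against 7.91 and 10.4 in the rest. In that gate 2 of the 12 markers were higher in the Dach1OE library, with sums of 7034 and 5999 CPM. The part of those markers was not tested.

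Chondrocytes had the highest H19 level of any class, at 1451 CPM in the Control and 1802 CPM in the Dach1OE library, a log2 ratio of 0.31 (0.30 to 0.33). By gate it was highest in the upper cells (Sfrp5 and Cytl1 among its leading genes), at 3014 and 3465 CPM, then 1734 and 1875 CPM in the gate built on columnar markers (led by cell cycle genes such as Ube2c and Ccnb1, with none of its own markers in its first 10 genes). Prehypertrophic cells had 608 and 781 CPM, and hypertrophic cells 836 and 830 CPM. None of these 4 gates reached a 2-fold difference between the libraries. Over all 21 gates, 12 of 20 neighbours in the order of H19 levels had overlapping intervals in the Control library and 9 of 20 in the Dach1OE library, mostly at the low end.

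Igf2, the fetal growth factor next to H19, was almost absent. ECs had 0 Igf2 UMIs in the Control library and 44 in the Dach1OE library (1.88 CPM), at least 13.3-fold higher when the 0 is set to 3 counts. Arterial ECs held 37 of these 44, at 13.3 CPM and at least 4.54-fold higher, in 28 cells. The 37 UMIs were split over both sexes where it could be told, with 9 in Xist cells and 9 in cells with Y-linked UMIs. Diaphyseal stromal cells had 11 and 12 UMIs (1.76 and 5.10 CPM), with a log2 ratio of 1.54 (0.23 to 2.86). These were the 2 gates in which Igf2 had enough UMIs for a ratio. In both it reached the minimum only with its Dach1OE UMIs and could only count as higher. Both also had high H19 in the Dach1OE library, and no pattern is read from that. Chondrocytes had only 19 and 39 Igf2 UMIs in all. Igf2os is antisense to Igf2, and strand use in the counting is not stated in the sources used here, so their UMIs cannot be told apart.

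Of the 9 genes with enough UMIs in ECs, 4 were at least 2-fold higher in the Dach1OE library (H19, Igf2, Mest and Plagl1) and none was lower. Igf2 reached the minimum of 20 UMIs through the Dach1OE library alone, here and in arterial ECs, and so could only count as higher. Over all genes tested in ECs 3.87% were 2-fold higher and 3.29% lower. The median log2 ratio of the 9 was 0.82, against 0.03 over all genes. In cells with Xist alone 2 remained past 2-fold, since Igf2 then had too few UMIs and Plagl1 stood at 0.91. Without arterial ECs the count was also 2 (H19 and Mest), and no share of all genes was computed for either set of cells. In arterial ECs 5 of 9 were higher (H19, Igf2, Mest, Plagl1 and Cdkn1c), where 5.72% of all genes were higher and 3.91% lower, and in sinusoidal ECs 0 of 8, where 2.17% were higher and 3.33% lower. Plagl1 in arterial ECs (12 and 230 UMIs) reached the minimum only with its Dach1OE UMIs. Metaphyseal ECs had 3 of 8 higher (H19, Mest and Meg3), against 2.15% of all genes higher and 1.73% lower. Meg3 in metaphyseal ECs (13 and 51 UMIs) likewise reached the minimum only with its Dach1OE UMIs. In type R ECs 3 of 6 were higher (H19, Mest and Cdkn1c), against 4.84% and 4.08%. There H19 (4 and 226 UMIs) reached the minimum through the Dach1OE library alone and could only count as higher. Mest (10 and 59 UMIs) reached it only with its Dach1OE UMIs and could not count as lower. The Pgf and Cxcr4 gate had 4 of 6 (H19, Mest, Plagl1 and Cdkn1c), against 6.23% and 3.63%, and the Scgb3a1 gate 1 of 8 (Mest), against 8.34% and 11.2%. Mest in the Scgb3a1 gate (17 and 1005 UMIs) reached the minimum only with its Dach1OE UMIs. H19 (3 and 449 UMIs) and Plagl1 (3 and 45) reached the minimum in the Pgf and Cxcr4 gate through the Dach1OE library alone. They could only count as higher there. None of the genes with enough UMIs in a gate was 2-fold lower in any of these EC gates.

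**Figure D4:**
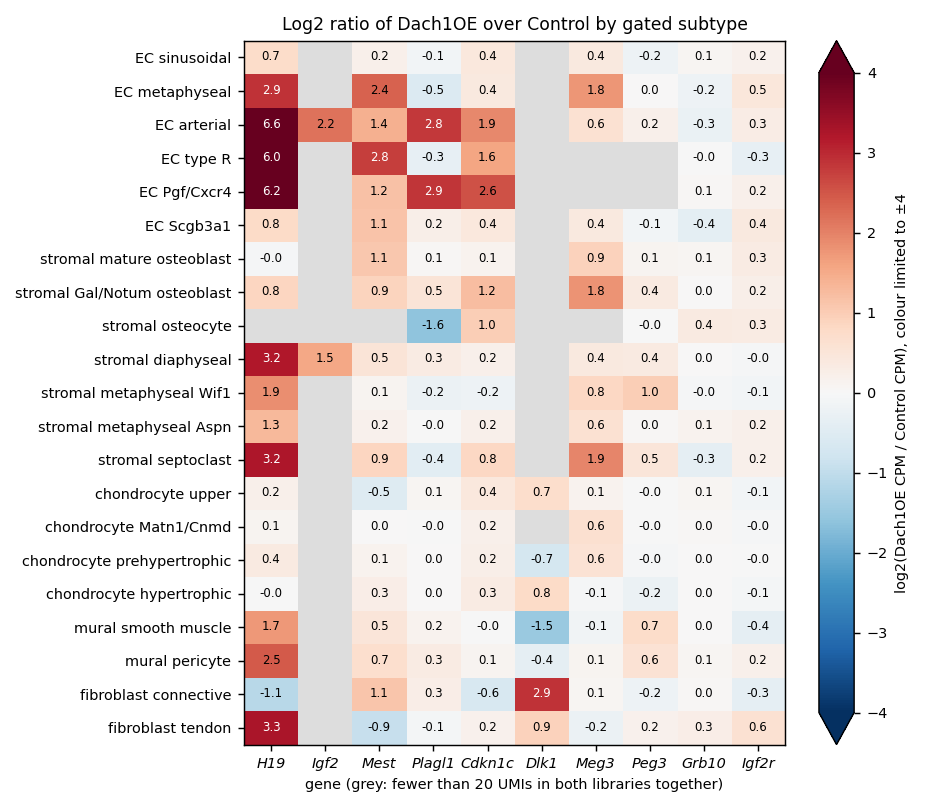
Log2 ratio of Dach1OE over Control CPM for the 10 genes (columns) in each gated subtype (rows), with colour limited to 4 either way and grey where both libraries together had fewer than 20 UMIs. H19 is at least 2-fold higher in 11 of 20 gates, while Peg3, Grb10 and Igf2r are past 2-fold in none with enough UMIs.

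Mest, which encodes a hydrolase-like protein and is read from the paternal copy, was past 2-fold in all 6 EC gates but the sinusoidal. In ECs together it was at 77.4 CPM in the Control and 264 CPM in the Dach1OE library, a log2 ratio of 1.77 (1.69 to 1.85). Its pattern over EC gates differed from that of H19, with metaphyseal ECs at 68.7 and 353 CPM (2.36, 2.17 to 2.56) and arterial ECs at 101 and 270 CPM (1.42, 1.13 to 1.74). Sinusoidal ECs had 82.0 and 94.1 CPM, and their interval (-0.10 to 0.49) held 0. The highest Dach1OE level of any gate was in the Pgf and Cxcr4 ECs, at 654 CPM against 288 CPM in the Control.

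After thinning, 5.98% of Control and 23.9% of Dach1OE metaphyseal ECs had a Mest UMI, against 2.34% and 3.26% of haematopoietic cells. Metaphyseal Dach1OE ECs with a Dach1 UMI had Mest at 529 CPM (34.5% of thinned cells) and those without at 246 CPM (18.7%), with median depths of 3693 and 2858.5 UMIs. The other gates varied. The Scgb3a1 gate had 141 and 147 CPM. Type R ECs had 287 and 125 CPM, with 15.2% and 17.6% of thinned cells, and arterial ECs 293 and 247 CPM, with 17.3% and 16.5%. In the Pgf and Cxcr4 gate the levels were 697 and 593 CPM and the shares 43.5% (32.8 to 54.7) and 29.3% (19.4 to 41.0), with overlapping intervals. Cells of both sexes had higher Mest in the Dach1OE library, by 2.02 (Xist) and 2.42 (Y-linked) on the log2 scale in metaphyseal ECs. Outside the ECs, Mest was highest in the Aspn gate, at 432 and 489 CPM, and in tendon fibroblasts, at 415 and 221 CPM (-0.91, -1.13 to -0.68). Copg2 lies antisense over Mest, with the same limit on strand.

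Cdkn1c encodes p57, an inhibitor of cyclin-dependent kinases that holds cells out of the cycle. In ECs it was at 328 CPM in the Control and 580 CPM in the Dach1OE library (0.82, 0.78 to 0.87). Arterial ECs had 146 and 551 CPM (1.92, 1.68 to 2.17), type R ECs 94.4 and 279 CPM, and Pgf and Cxcr4 ECs 68.7 and 406 CPM, so 3 EC gates were past 2-fold. Metaphyseal ECs had 161 and 212 CPM (0.40), and the Scgb3a1 gate, the highest among ECs, 638 and 846 CPM (0.41).

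In the Dach1OE arterial ECs Cdkn1c was seen more often beside H19. After thinning to 1000 UMIs, 47.2% (41.2 to 53.4) of 271 cells with an H19 UMI had a Cdkn1c UMI, and 28.0% (24.0 to 32.2) of 482 cells without. Plagl1 had 12.9% and 5.19% in the same split, whereas Mest had 15.9% and 17.4% and Grb10 14.0% and 17.0%. The intervals of the latter 2 genes overlapped.

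**Figure D5:**
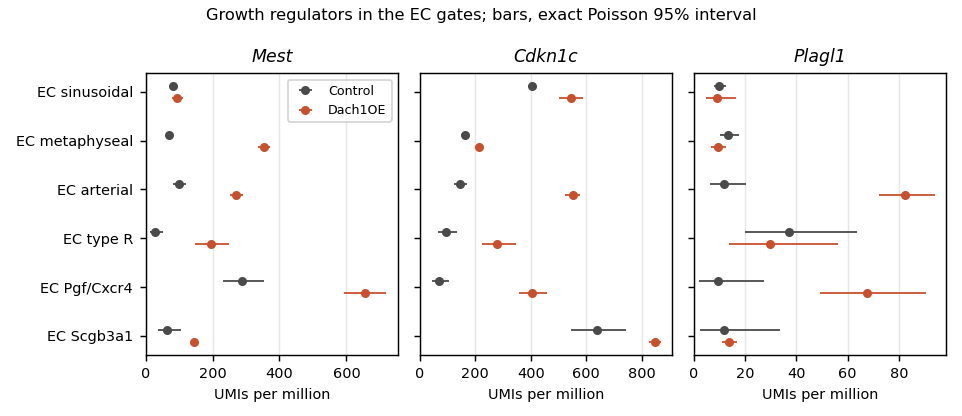
Level in CPM of growth regulators among the 10 genes in the EC gates, with 1 point per library and bars for the exact Poisson 95% interval. Mest is highest in the Dach1OE Pgf and Cxcr4 gate (654 CPM), and Cdkn1c in the Dach1OE Scgb3a1 gate (846 CPM).

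In cartilage Cdkn1c was lowest in the upper gate, where H19 was highest, at 370 and 493 CPM. It was highest in prehypertrophic cells, where H19 was lowest, at 2673 and 3125 CPM, with 1487 and 1871 CPM in hypertrophic cells. Cells with cell cycle genes had less Cdkn1c than other chondrocytes, by -0.95 on the log2 scale in each library, and more H19, by 1.03 in the Control and 0.91 in the Dach1OE library. These values pool gates too, with 208 of 727 Control cells cycling in the gate on columnar markers, 49 of 226 in the upper gate and 58 of 1071 among prehypertrophic cells. In ECs Cdkn1c was lower in cycling cells of both libraries, by -1.11 in the Control and -1.19 in the Dach1OE library. H19 differed by 0.28 (-0.30 to 0.81) in Control and -1.15 (-1.27 to -1.03) in Dach1OE ECs, and Mest by 0.07 (-0.18 to 0.31) and 0.48 (0.38 to 0.58). These values pool EC gates with different shares of cycling cells, 32 of 772 arterial and 171 of 1179 metaphyseal ECs in the Dach1OE library, and the arterial gate held 71.4% of the H19 UMIs there.

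Plagl1 encodes a zinc finger factor known to switch on other imprinted genes, H19, Igf2 and Cdkn1c among them. In ECs it was at 11.4 CPM in the Control and 24.4 CPM in the Dach1OE library (1.10, 0.88 to 1.32). Arterial ECs and the Pgf and Cxcr4 gate had more in the Dach1OE library. Arterial ECs were at 11.7 CPM from 12 UMIs and 82.6 CPM from 230 UMIs (2.82, 1.98 to 3.79), and they held 40.4% of the EC Plagl1 UMIs in the Dach1OE library. The Pgf and Cxcr4 gate had 9.37 and 67.7 CPM from 3 and 45 UMIs (2.85, 1.21 to 5.18). Metaphyseal ECs had 13.4 and 9.28 CPM (-0.53, -1.17 to 0.10) and sinusoidal ECs 9.85 and 9.16 CPM, with both intervals holding 0.

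Prehypertrophic chondrocytes had the most Plagl1, at 714 and 716 CPM, and all 4 chondrocyte gates differed by at most 0.08 on the log2 scale. In stromal cells as a class it was lower in the Dach1OE library, at 192 and 121 CPM (-0.67). With equal weights for the stromal gates the ratio was -0.05, and the gate with the most Plagl1 UMIs, the diaphyseal, had 353 and 441 CPM. Osteocytes had 27 and 11 UMIs (-1.61, -2.77 to -0.55).

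Grb10, an adaptor that dampens insulin and IGF1 receptor signalling, was the steadiest of the 10. In ECs it was at 207 and 194 CPM (-0.10, -0.16 to -0.04), and none of 21 gates was past 2-fold. Metaphyseal ECs were its highest EC gate, at 337 and 291 CPM, and the chondrocyte gate on columnar markers its highest of all, at 602 and 621 CPM.

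Igf2r, the receptor that takes IGF2 to the lysosome, was at 48.8 and 79.0 CPM in ECs (0.69, 0.58 to 0.81), and also passed 2-fold in none of 21 gates. Connective fibroblasts and pericytes were among its highest gates, at 175 and 138 CPM and at 120 and 139 CPM. Airn is antisense over Igf2r, so their UMIs cannot be told apart either.

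Dlk1 and Meg3, the pair on chromosome 12, followed perivascular and connective cells rather than ECs. Dlk1, a membrane protein of the Notch ligand type that restrains fat cell formation, was highest in pericytes, at 171 CPM (252 UMIs) and 132 CPM (398 UMIs). ECs had only 6 and 9 Dlk1 UMIs. Smooth muscle had less in the Dach1OE library, at 29.3 and 10.4 CPM (-1.49, -2.27 to -0.75). The 45 and 24 UMIs lay in 14 and 16 cells, and the shares of thinned cells, 1.05% (0.387 to 2.28) and 0.721% (0.290 to 1.48), overlapped. In cells with Xist there were 18 and 2 UMIs (-3.72, -6.87 to -1.66), and in cells with Y-linked UMIs 6 and 5 (-0.57, -2.62 to 1.41). Connective fibroblasts had more, at 7.52 and 55.5 CPM from 13 and 94 UMIs in 8 and 29 cells (2.88, 2.04 to 3.85).

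Meg3, a maternally expressed non-coding RNA, was also highest in pericytes, at 324 and 350 CPM, with tendon fibroblasts (221 and 187 CPM), connective fibroblasts (204 and 214 CPM) and upper chondrocytes (173 and 191 CPM) next, in an order that differed between the libraries. In ECs it was at 5.65 and 9.64 CPM. The 3 gates past 2-fold rested on few UMIs: 13 and 51 in metaphyseal ECs, 8 and 31 in septoclasts, and 3 and 20 in osteoblasts with Gal and Notum (1.80, 0.05 to 4.19). Gm26906 is antisense over Meg3.

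Peg3, a paternally expressed zinc finger gene, belonged to cartilage, at 621 CPM in Control and 599 CPM in Dach1OE chondrocytes. ECs had 17.9 and 22.1 CPM. Among gates with enough UMIs, the largest Peg3 ratio was in the Wif1 gate, at 33.7 and 66.8 CPM (0.99, 0.52 to 1.46).

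Outside the ECs the count of the genes past 2-fold was low. In stromal cells 1 of 10 was higher (H19), where 0.728% of all genes were, and without the diaphyseal gate none was. All stromal genes tested had a median log2 ratio of -0.22, and relative to it 2 of the 10 were higher. No share of all genes was computed relative to that median or without the diaphyseal gate. In chondrocytes 0 of 10 were higher (background 0.833%), in mural cells 1 of 9 (H19; 1.77%) and in fibroblasts 1 of 9 (Dlk1; 1.4%). None was lower in any of these 4 classes, where the background was 5.33%, 2.57%, 1.8% and 2.42%.

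By gate the counts outside the ECs were 0 to 2 higher and 0 or 1 lower. Diaphyseal stromal cells had 2 of 9 higher (H19 and Igf2), where 1.17% of all genes were higher and 2.03% lower. Igf2, with 11 and 12 UMIs there, reached the minimum only with its Dach1OE UMIs and could only count as higher. In septoclasts 2 of 8 were higher (H19 and Meg3, against 2.65% and 3.02% of all genes). H19 in septoclasts (14 and 133 UMIs) reached the minimum only with its Dach1OE UMIs. Meg3 had 8 and 31 UMIs there, reached the minimum only with its Dach1OE UMIs and could not count as lower. H19 was the 1 gene of 8 that was higher in both the Wif1 gate (1.2% and 2.01%) and the Aspn gate (1.91% and 1.99%). Mature osteoblasts had 1 of 8 higher (Mest; 0.968% and 2.2%), osteoblasts with Gal and Notum 2 of 8 (Cdkn1c and Meg3; 2.26% and 2.04%), and osteocytes 1 of 5 lower (Plagl1; 2.34% and 2.9%). In the gate on Gal and Notum, Cdkn1c was at 12.9 and 30.2 CPM. Meg3, with 3 and 20 UMIs in that gate, reached the minimum through the Dach1OE library and could only count as higher. All 12 chondrocyte markers (sums of 6726 and 8191 CPM) and 9 of 10 EC markers were higher there in the Dach1OE library, and their part was not tested.

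None of the 8 or 9 genes with enough UMIs was past 2-fold in any of the 4 chondrocyte gates. There the shares of all genes higher and lower were 1.7% and 1.97% in the upper gate, 0.887% and 2.2% in the gate on columnar markers, 1.1% and 2.4% in prehypertrophic cells and 1.85% and 1.7% in hypertrophic cells. Smooth muscle had H19 higher and Dlk1 lower of 9 (2.24% and 2.4% of all genes), and pericytes had H19 higher of 9 (2.14% and 1.87%). H19 in pericytes (18 and 203 UMIs) reached the minimum only with its Dach1OE UMIs. In connective fibroblasts Mest and Dlk1 were higher and H19 lower of 9 (1.6% and 3.34%), and in tendon fibroblasts H19 was higher of 9 (2.43% and 3.7%). Dlk1 in connective fibroblasts (13 and 94 UMIs) reached the minimum only with its Dach1OE UMIs and could not count as lower.

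Among 32 other imprinted genes in the tables, 5 of 28 with enough UMIs were at least 2-fold higher in Dach1OE ECs and none was lower, where 3.87% and 3.29% of all genes were, with a median log2 ratio of 0.21 against 0.03 over all genes. The largest ratios were those of Ppp1r9a (55 and 888 UMIs, 3.88), Peg10 (50 and 543 UMIs, 3.30) and Sgce (999 and 4098 UMIs, 1.90), neighbours in 1 imprinted cluster. Nnat (7 and 21 UMIs) and Slc22a18 (25 and 66 UMIs) were the other 2. Nnat reached the minimum only with its Dach1OE UMIs and could not count as lower. In sinusoidal ECs, where among the 10 genes none with enough UMIs was past 2-fold, 4 of 18 were higher (Peg10, Sgce, Asb4 and Ppp1r9a, against 2.17% of all genes). Stromal cells had 0 higher and 3 lower of 28 (Dio3, Cobl and Nnat), where 0.728% of all genes were higher and 5.33% lower. Chondrocytes had 0 of 29 in either direction (0.833% and 2.57%). Mural cells had 0 higher and 2 lower of 24 (Nnat and Cobl; 1.77% and 1.8%), and fibroblasts 1 higher (Kcnq1) and 1 lower (Nnat) of 25 (1.4% and 2.42%).

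The genes of IGF signalling and of Igf2 regulation were the ligand gene Igf1, receptors, their adaptors, RNA binding proteins, Hmga2 and Ctcf. They were not past 2-fold in ECs (0 of 10), in chondrocytes (0 of 11) or in fibroblasts (0 of 9). The shares of all genes higher and lower were 3.87% and 3.29% in ECs, 0.833% and 2.57% in chondrocytes, and 1.4% and 2.42% in fibroblasts. In stromal cells 2 of 11 were lower, Igf1 (512 and 245 CPM, -1.06) and Igf2bp1 (68 and 32 UMIs, -1.09), where 5.33% of all genes were lower. In mural cells 2 of 9 were lower, Irs2 (45.4 and 19.8 CPM) and Igf2bp1 (15 and 7 UMIs), where 1.8% of all genes were lower. Igf1r, which also binds IGF2, was at 67.3 and 88.1 CPM in ECs (0.39, 0.29 to 0.49).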

How the data were processed

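The deposited tables hold counts per cell and gene (reads, raw UMIs and UMIs after correction of identifiers that differ by sequencing errors), made by the authors with the BD Rhapsody WTA Analysis Pipeline 1.11 on GRCm38 with GENCODE vM19, per the file headers, with intronic reads counted. The methods name another pipeline version. Unspliced and overlapping transcripts therefore add to a gene's UMIs. Cells with 500 to 6000 genes and under 25% mitochondrial UMIs were kept. Corrected UMIs were used, summed per library and gate and divided by the gate's total.

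Gates took the mean z-score of log-scaled marker levels, with a top score of at least 0.5 and a margin of 0.5 between classes and 0.25 between subtypes. Subtypes with 50 cells in each library were used. CPM values have exact Poisson intervals, ratios exact conditional binomial intervals and shares of cells exact binomial intervals, from scipy 1.17.1. A gene was called past 2-fold with at least 20 UMIs in both libraries together. The fold against 0 used 3 counts. Positions come from GENCODE vM21 on GRCm38.

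The members, gene lists and comparisons were chosen with earlier results of these data known. All 10 genes were named in every class, and of each other list the genes past 2-fold and up to 3 with the largest ratios. The H19 bin of 10 or more UMIs, Asb4, and other subtype values of those lists were chosen after seeing the values.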

Additional observations from a re-analysis of the deposited data

Results flagged for a closer look

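Results were set apart here in either of these cases. Cells of either sex differed between the libraries in opposite directions, with both intervals clear of no difference and at least 1 side past 2-fold. Or gates of 1 class were past 2-fold in opposite directions. None of these differences was tested, since each library was 1 sample.

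In connective fibroblasts the log2 ratio of H19 (Dach1OE over Control) was 0.39 in cells with Xist and -1.79 in cells with Y-linked UMIs. Within the fibroblast class, H19 had a ratio of 3.27 in tendon and -1.11 in connective fibroblasts. Plagl1 in smooth muscle cells had a ratio of -1.14 in cells with Xist (24 and 16 UMIs) and 3.94 in cells with Y-linked UMIs (1 and 19 UMIs, interval 1.29 to 9.32).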

How the results depend on the processing

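With 1 library per group, depth and gating limit these values, and no other library checks them. The EC H19 ratio, 4.94 on the log2 scale, was 5.25 with the margin between class scores doubled, 4.68 with a multinomial classifier, 5.50 with equal weights of subtypes, 4.62 with cells thinned to 1000 UMIs and 5.15 in cells with Y-linked UMIs. Without arterial ECs it was 3.38 and with H19 above 10 UMIs set to 10 it was 3.53, and with UMIs of 3 or more EC markers and no gate it was 1.82, all chosen after seeing the data. The share of all genes was computed for the main setting at 2-fold alone, so the counts that follow cannot be set against it. The EC count of 4 genes past 2-fold was 7 at 1.5-fold, and 2 with Xist cells alone or without arterial ECs. The stromal count of 1 was 2 with no margin, with equal weights, relative to the median of all genes or without the 5% of cells with the most UMIs, 4 at 1.5-fold and 0 without diaphyseal cells. The chondrocyte count of 0 was 1 at 1.5-fold. The mural count of 1 was 3 with mitochondrial UMIs under 10%, 2 at 1.5-fold or in Y-linked cells, and 0 with no margin, the margin doubled, thinned cells or without the 5% deepest cells. The fibroblast count of 1 was 2 with no margin, in Xist cells or with no UMI minimum, and 3 in Y-linked cells or at 1.5-fold. Beyond the cells or genes that a setting leaves out or lets in, the cause was not tested. With each ratio of a single gene counted once per setting, 418 values lay within the counting interval of the main ratio and 150 outside it. No class ratio past 2-fold changed sign. Raw UMIs moved no ratio by more than 0.04. No paired analysis was possible because each group has 1 library.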

Other observations

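Over 43 units of 1 subtype in 1 library, the genes with levels most like those of H19 among 6891 genes were Rab28 (Pearson r = 0.78), Hspe1 (0.77), Srebf2 (0.76), Pgm2 (0.76) and Chst12 (0.75). For Dlk1 they were Galnt16 (0.89), Agtr1a (0.87), Adra1b (0.87), Ngfr (0.86) and Aldh1a1 (0.86), and for Meg3 Rgma (0.87), Mgp (0.81), Angptl2 (0.81), Crispld2 (0.80) and Ndufa4l2 (0.80). The units share 2 libraries and their depths, so these values are descriptions. Igf2 stayed under 50 CPM in every unit and was not compared.

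In haematopoietic cells H19 was held by few cells. In the Control library 192 of 3732 cells had an H19 UMI, with up to 127 in 1 cell, and in the Dach1OE library 451 of 4047 had one, with up to 160.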
